A study of Homo sapiens with 38 samples.

Results

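The transcripts of 7 mucin genes were followed in A549 cells, a line of human lung adenocarcinoma cells with alveolar epithelial traits, exposed to fumed silica nanoparticles (NPs). The genes were chosen by name as MUC1, MUC4, MUC5AC, MUC5B, MUC13, MUC16 and MUC20, and their probes were those spots of the microarrays whose transcript accession belongs to the gene in the RefSeq table used here. Of the 34127 different probes on each array, 10 belonged to 5 of these genes, out of 19720 genes named on the array. MUC1 had 2 probes, MUC4 had 4, MUC16 had 2, and MUC5B and MUC13 had 1 each. No probe accession matched MUC5AC or MUC20 in that table, so these genes were not analysed here. The array may still hold probes for them under accessions that the table lacks.

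Mucins are large proteins densely covered with sugars attached to serine and threonine. MUC5B and MUC5AC are secreted and polymerise into the gel that traps inhaled particles, whereas MUC1, MUC4, MUC13, MUC16 and MUC20 span the cell membrane and form a brush-like coat from which their outer part can be shed. In the airways the gel-forming mucins come mostly from goblet cells and submucosal glands. Their protein backbone receives its first sugar from the GALNT enzymes, and the chains are then extended or capped, for example with sialic acid by the ST6GALNAC enzymes.

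Unexposed control cells in serum-free medium were compared with cells exposed to fumed silica NPs of the AEROSIL series in the same medium, on 38 single-dye arrays that formed 3 sets. In the first set 4 control arrays stood against 4 arrays at 0.1 μg/cm2 and 4 at 1.0 μg/cm2, and in the second 4 control arrays against 4 at 1.5 μg/cm2, all after 24 h. In the third set the controls, 3.0 μg/cm2 and 6.0 μg/cm2 each had 3 arrays at 24 h and 3 at 72 h. The 72 h exposure was taken from the labelled source of each sample, since the description of the exposed 72 h samples gives 24 h. All groups are 1 cell line in culture, and the labels give no genotype or agent other than the NPs.

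The level of a probe is given throughout as log2 of its processed intensity minus the 75th percentile of its array, so that 0 is the 75th percentile and a difference of 1 is 2-fold. The 75th percentile lay between 740.4 and 3202 intensity units, and 54.4% to 73.6% of the probes of an array were well above background. Levels of different probes were not set against each other. In the first set and in the second, arrays 1 and 2 of a group and arrays 3 and 4 deviated from the group mean together, with a median absolute log2 difference over probes of 0.0488 to 0.0872 within these pairs against 0.164 to 0.248 between arrays of different pairs. The exception was the pair of control arrays 1 and 2 of the second set, at 0.183. The labels give each array of a group its own biological and its own technical replicate number, while the methods describe 3 cultures. In the third set the exposed 72 h arrays were scanned on another day and on other slides than the 72 h controls, so exposure and scan day cannot be told apart there. All 6 epithelial markers (EPCAM, CDH1 and keratins 7, 8, 18 and 19) were well above background on every array. Of 10 alveolar type II markers, SFTPA2, SFTPC, ABCA3 and NAPSA were so on all 38 arrays, SFTPD on 37 and LAMP3 on 33. SFTPA1 was so on 11, SFTPB on 2, NKX2-1 on 1 and SLC34A2 on 0.

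The stretches just before the annotated transcript starts of MUC1, MUC13 and MUC4 are shown because the transcripts of MUC1 and MUC13 fell together at 72 h whereas that of MUC4 did not. They are RefSeq sequence of build GRCh38.p14, 250 bases each, written 5′ to 3′ on the strand of the gene and ending at the base before the transcript. Capitals mark every match, on either strand, to TATAAA (the core promoter's TATA box), GGGCGG (GC box, bound by Sp1), TGANTCA (AP-1 site), TTCNNNGAA (GAS element, bound by STAT factors) or TGTTTNC (core of the forkhead FOXA site).
MUC1, chr1:155192916-155193165, minus strand: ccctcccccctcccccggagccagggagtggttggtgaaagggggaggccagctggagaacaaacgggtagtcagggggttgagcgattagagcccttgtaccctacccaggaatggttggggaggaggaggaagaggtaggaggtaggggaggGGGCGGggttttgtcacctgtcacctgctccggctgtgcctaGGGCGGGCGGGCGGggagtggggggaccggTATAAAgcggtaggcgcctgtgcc
MUC13, chr3:124934752-124935001, minus strand: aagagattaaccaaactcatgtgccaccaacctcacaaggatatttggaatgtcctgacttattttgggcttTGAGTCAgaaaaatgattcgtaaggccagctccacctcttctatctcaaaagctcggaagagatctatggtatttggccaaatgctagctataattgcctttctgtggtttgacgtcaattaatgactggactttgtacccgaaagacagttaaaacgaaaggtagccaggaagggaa
MUC4, chr3:195811930-195812179, minus strand: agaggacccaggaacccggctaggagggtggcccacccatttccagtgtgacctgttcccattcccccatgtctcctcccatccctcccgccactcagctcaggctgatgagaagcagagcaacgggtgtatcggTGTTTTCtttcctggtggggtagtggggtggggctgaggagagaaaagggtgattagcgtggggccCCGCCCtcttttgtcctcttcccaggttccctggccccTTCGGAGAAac
The MUC1 window held a TATA box starting 24 bases before the transcript and 4 GC boxes, 3 of them overlapping, and its GC content was 66%. The MUC13 window held 1 AP-1 match (TGAGTCA) and had a GC content of 41.6%. The MUC4 window held a GC box on the opposite strand, a forkhead core and a GAS match (TTCGGAGAA), and had a GC content of 60.4%. Among 35116 windows of the same length before annotated transcript starts, a TATA box was held by 10.7%, a GC box by 42.6%, an AP-1 match by 6.57%, a GAS match by 6.57% and a forkhead core by 15.5%, and the median GC content was 58%. These letters describe the windows only. No such window was at hand for MUC5B.

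MUC1, MUC4, MUC5B and MUC13 were measured well above background on all 38 arrays by their brightest probe, which is the probe described below unless another is named. MUC16, the membrane mucin known as the CA125 antigen, stayed at the background. Its brighter probe was well above background on 5 of 38 arrays and its other probe on 1, never on all arrays of a group, so that MUC16 was not tested at any dose. The levels of the brighter MUC16 probe ran from −8.94 to −5.37 over all arrays, and the 3 arrays at 3.0 μg/cm2 and 72 h gave −5.46, −8.45 and −8.46. Only the first of these 3 was well above background.

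**Figure D1:**
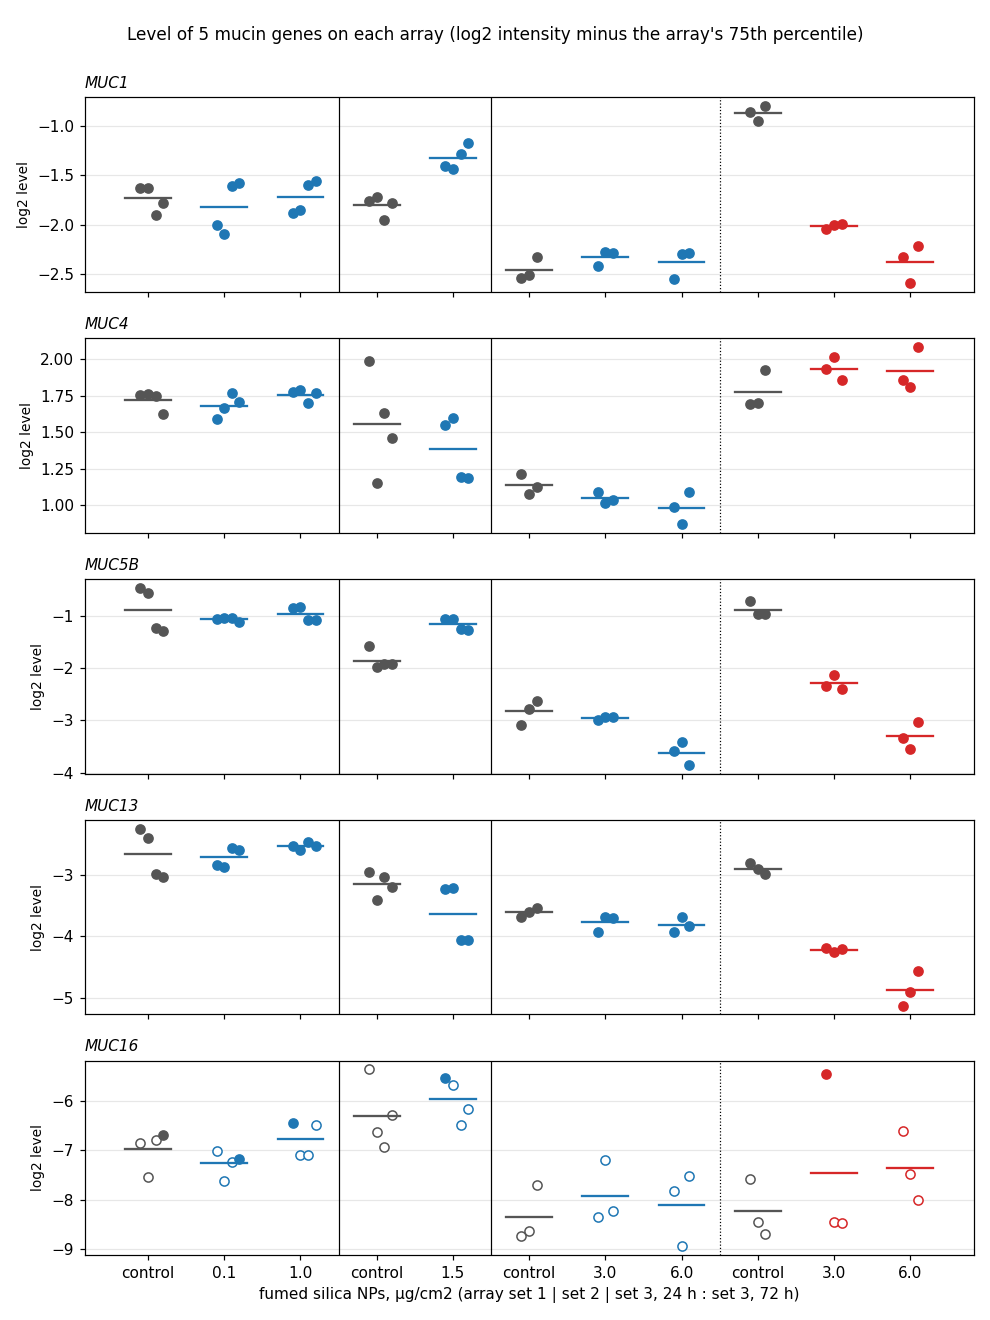
Level of the brightest probe of MUC1, MUC4, MUC5B, MUC13 and MUC16 on each of the 38 arrays, as log2 intensity minus the 75th percentile of the array; vertical lines separate the array sets and the dotted line the 24 h from the 72 h arrays of the third set. Each point is an array, filled where the probe was well above background, and bars are group means (grey controls, blue 24 h exposure, red 72 h exposure). MUC1, MUC5B and MUC13 lay lower on every exposed 72 h array than on every 72 h control array, and most MUC16 points are open.

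Ordered by group mean, MUC1 was highest in unexposed cells at 72 h (−0.87 ± 0.07, SD, n = 3) and next at 1.5 μg/cm2 (−1.33 ± 0.12, n = 4), and both groups were separated from their neighbours. The 4 groups that followed, from −1.72 ± 0.16 at 1.0 μg/cm2 to −1.82 ± 0.27 at 0.1 μg/cm2, overlapped one another, and the last of them also overlapped with 3.0 μg/cm2 at 72 h (−2.01 ± 0.02). The last 4 overlapped too, from −2.33 ± 0.08 at 3.0 μg/cm2 and 24 h to −2.46 ± 0.12 in the 24 h controls of the third set. MUC5B ran from −0.89 ± 0.14 in unexposed cells at 72 h to −3.62 ± 0.22 at 6.0 μg/cm2 and 24 h, which overlapped with 6.0 μg/cm2 and 72 h. MUC13 ran from −2.52 ± 0.05 at 1.0 μg/cm2 to −4.87 ± 0.29 at 6.0 μg/cm2 and 72 h, which did not overlap with the group above it. MUC4 varied least among the 4, from 1.93 ± 0.08 at 3.0 μg/cm2 and 72 h to 0.98 ± 0.11 at 6.0 μg/cm2 and 24 h, and each of its groups overlapped with the next. The 24 h controls of the 3 sets differed by up to 1.94 in MUC5B (−0.89, −1.86 and −2.83), so each exposure was compared only with the controls of its own set.

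The comparisons at 0.1 and 1.0 μg/cm2 asked whether the lowest doses already moved the mucin transcripts within 24 h. None of the 4 genes tested was modulated, which here means a change of 1.5-fold or more whose adjusted p by limma is below 0.05. Over all probes tested, 0% were modulated at 0.1 μg/cm2 and 0.00948% at 1.0 μg/cm2. None of the 4 genes had an unadjusted p under 0.05 at either dose, and the methods' t-test also called 0 of them. Over all probes at 0.1 μg/cm2, the unadjusted p was below 0.05 for 2049 of 21699, and 1 was called by the methods' t-test. The log2 differences from the control lay between −0.18 ± 0.19 (SE) for MUC5B and −0.04 ± 0.07 for MUC4 at 0.1 μg/cm2, and between −0.08 ± 0.20 for MUC5B and 0.14 ± 0.17 for MUC13 at 1.0 μg/cm2. The 95% interval for MUC5B at 0.1 μg/cm2, −0.62 to 0.26, still includes a 1.5-fold fall. MUC5B was −0.47, −0.57, −1.24 and −1.28 on the 4 control arrays, so arrays 1 and 2 stood well above arrays 3 and 4. MUC13 split the same way, at −2.24, −2.39, −2.99 and −3.02.

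At 1.5 μg/cm2, MUC5B was higher in exposed than in control cells. The control arrays gave −1.59, −1.98, −1.93 and −1.93 and the exposed arrays −1.07, −1.06, −1.26 and −1.28, so the groups did not overlap. The difference was 0.69 ± 0.11 (SE), or 1.62-fold (adjusted p = 0.015), and MUC5B was the 1 mucin gene of the 4 tested that was modulated, where 2.48% of all probes were. MUC1 moved the same way, from −1.76, −1.72, −1.95 and −1.78 to −1.41, −1.44, −1.28 and −1.18. Its groups did not overlap either, but its 1.39-fold difference (0.47 ± 0.09, adjusted p = 0.03) stayed under the fold threshold. MUC13 was −2.94, −3.40, −3.04 and −3.20 in control cells and −3.23, −3.22, −4.07 and −4.05 in exposed cells. Exposed arrays 1 and 2 lay within the control range and arrays 3 and 4 below it, and the difference of −0.50 ± 0.23 did not pass (adjusted p = 0.331). MUC4 was close to its control (−0.18 ± 0.19, adjusted p = 0.686).

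The MUC5B call at 1.5 μg/cm2 was lost with arrays 1 and 2 and arrays 3 and 4 taken as linked by a random block (adjusted p = 0.202), and without control replicate 3 (adjusted p = 0.0506). Both groups were scanned on 2 days, and the MUC5B difference was 0.72 within the first day (2 arrays against 2, adjusted p = 0.205) and 0.66 within the second. The first day held arrays 1 and 2 of each group and the second arrays 3 and 4, so scan day and array pair are the same split. Within the second day alone MUC1 and MUC13 were called as well, at 0.63 and −0.94. Those calls rest on 2 arrays against 2 that may be technical pairs.

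At 3.0 μg/cm2 and 24 h, a dose at which 2.88% of all probes were modulated, none of the 4 genes was, and none had an unadjusted p under 0.05. By the methods' t-test 0 of them were called. The differences ran from −0.16 ± 0.08 (MUC13) through −0.12 ± 0.11 (MUC5B) and −0.09 ± 0.06 (MUC4) to 0.13 ± 0.08 (MUC1). At 6.0 μg/cm2 and 24 h MUC5B alone was modulated, where 5.37% of all probes were modulated downward and 3.95% upward. MUC5B was −3.08, −2.78 and −2.64 on the control arrays and −3.59, −3.42 and −3.85 on the exposed arrays, each of which was below every control array. The fall was 1.73-fold (−0.79 ± 0.15, adjusted p = 0.00851). It was not called with normexp background correction (−0.25, adjusted p = 0.402), nor with the series matrix values (−0.58, adjusted p = 0.0179). MUC1 differed by 0.08 ± 0.10, MUC4 by −0.16 ± 0.07 and MUC13 by −0.21 ± 0.08, with adjusted p of 0.571, 0.156 and 0.0907. The MUC13 difference turned to 0.20 with normexp (adjusted p = 0.523).

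**Figure D2:**
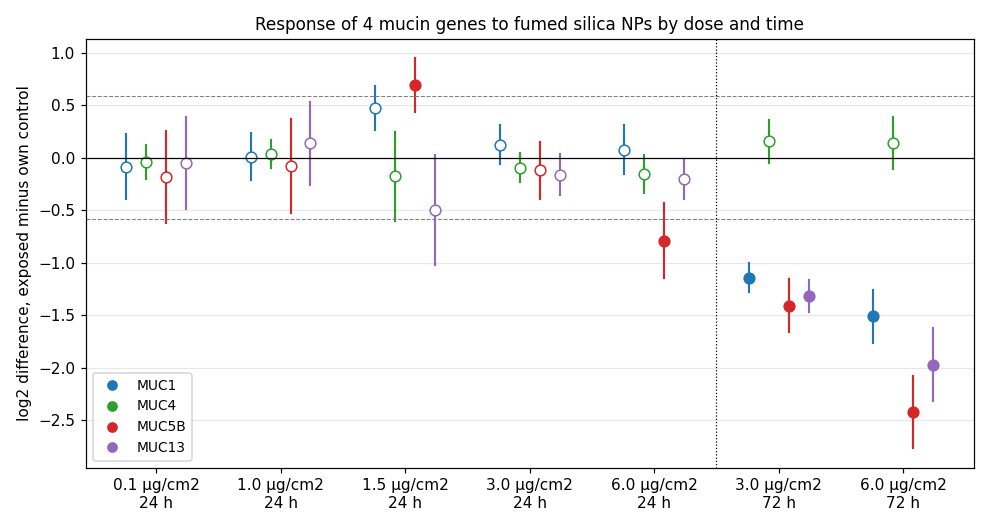
Log2 difference between exposed cells and their own controls for MUC1, MUC4, MUC5B and MUC13 at each dose (μg/cm2) and time. Points are limma estimates, filled where the gene was modulated, lines are 95% confidence intervals and dashed lines mark 1.5-fold. At 24 h the estimates stay between −0.79 and 0.69, whereas at 72 h MUC1, MUC5B and MUC13 lie between −2.42 and −1.14 and MUC4 at 0.16 and 0.14.

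The 72 h exposures asked whether the higher doses act differently when the cells stay with the NPs for longer. Against the 72 h controls, MUC1, MUC5B and MUC13 fell at both doses and MUC4 was not modulated at either. At 3.0 μg/cm2, 3.8% of all probes were modulated downward and 2.1% upward, and at 6.0 μg/cm2, 10.5% downward and 6.63% upward, against 3 of the 4 mucin genes tested downward at each dose.

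MUC1, a membrane mucin of most simple epithelia, was −0.86, −0.95 and −0.80 on the 72 h control arrays. It was −2.04, −2.00 and −2.00 at 3.0 μg/cm2 and −2.33, −2.59 and −2.22 at 6.0 μg/cm2. All 6 exposed arrays were thus at least 1 log2 unit below the lowest control array. The fall was 2.21-fold at 3.0 μg/cm2 (−1.14 ± 0.06, adjusted p = 0.000369) and 2.85-fold at 6.0 μg/cm2 (−1.51 ± 0.11, adjusted p = 0.000133). The other MUC1 probe was well above background on all 3 control arrays at 72 h but on 1 of 3 arrays at each dose. It was tested only because the control arrays passed the filter, and its differences did not pass (−0.52 ± 0.36, adjusted p = 0.31, and −0.70 ± 0.38, adjusted p = 0.177). The 1 exposed array above background at each dose, at −5.20 and −5.30, lay above the control arrays, at −5.48, −5.70 and −5.34. The sign of these differences thus comes from arrays at the background.

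MUC5B, the gel-forming mucin, was −0.72, −0.97 and −0.97 on the 72 h control arrays. At 3.0 μg/cm2 it was −2.34, −2.14 and −2.41 and at 6.0 μg/cm2 −3.34, −3.55 and −3.03, so that the 3 groups were in 3 separate ranges. The fall was 2.65-fold (−1.41 ± 0.10, adjusted p = 0.00119) at the lower of these doses. At the higher it was 5.34-fold (−2.42 ± 0.14, adjusted p = 8e-05), the largest difference from the control among the mucin genes tested at any dose and time.

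MUC13, a membrane mucin best known from the gut epithelium, was −2.80, −2.90 and −2.98 on the 72 h control arrays. It was −4.19, −4.25 and −4.20 at 3.0 μg/cm2 and −5.13, −4.91 and −4.56 at 6.0 μg/cm2, again in 3 separate ranges. The fall was 2.49-fold (−1.32 ± 0.06, adjusted p = 0.000369) and 3.92-fold (−1.97 ± 0.15, adjusted p = 0.000155). With normexp background correction these falls were called but smaller, at −0.76 (adjusted p = 9.1e-05) and −1.05 (adjusted p = 3.9e-06), and that of MUC5B at 6.0 μg/cm2 was −1.82 (adjusted p = 2.03e-06).

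MUC4, a membrane mucin that can bind the receptor ERBB2, was 1.70, 1.70 and 1.93 on the 72 h control arrays. It was 1.93, 2.01 and 1.86 at 3.0 μg/cm2 and 1.86, 1.81 and 2.09 at 6.0 μg/cm2, and its groups overlapped. The differences of 0.16 ± 0.08 and 0.14 ± 0.10 did not pass (adjusted p = 0.199 and 0.296), with 95% intervals of −0.04 to 0.37 and −0.11 to 0.39. A fall of the size seen in the other 3 genes lies outside both intervals. The other 2 MUC4 probes above background on every array also had positive differences (0.13 to 0.39) that were not called.

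Between the 2 doses at 72 h, whose arrays were scanned on the same day, MUC5B was 2.02-fold lower at 6.0 than at 3.0 μg/cm2 (−1.01 ± 0.15, adjusted p = 0.00937) and MUC13 1.57-fold lower (−0.65 ± 0.14, adjusted p = 0.0311). These were 2 of the 4 genes tested, where 3.76% of all probes were modulated downward and 1.09% upward. MUC1 differed by −0.37 ± 0.10 (adjusted p = 0.0595), although its groups did not overlap, and MUC4 by −0.02 ± 0.09 (95% interval −0.24 to 0.21). The MUC13 call was lost without replicate 1, 2 or 3 at 3.0 μg/cm2 or replicate 1 or 2 at 6.0 μg/cm2, with adjusted p of up to 0.112 or a fold change under 1.5. It was also lost with normexp (−0.29), quantile normalization (−0.59), no probe filter and the series matrix values (−0.40), that is in 9 of 14 alternatives. Both 72 h comparisons with the control share the same 3 control arrays.

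In unexposed cells the mucin transcripts rose between 24 h and 72 h, on arrays scanned on the same day. All 4 genes tested were higher at 72 h, where 13.4% of all probes were modulated upward and 6.72% downward. MUC5B rose from −3.08, −2.78 and −2.64 to −0.72, −0.97 and −0.97, which is 3.85-fold (1.94 ± 0.13, adjusted p = 0.000129). MUC1 rose from −2.54, −2.51 and −2.32 to −0.86, −0.95 and −0.80, which is 3.00-fold (1.59 ± 0.08, adjusted p = 5.56e-05). MUC13 rose from −3.69, −3.60 and −3.53 to −2.80, −2.90 and −2.98, or 1.64-fold (0.71 ± 0.07, adjusted p = 0.000464). MUC4 rose from 1.22, 1.08 and 1.12 to 1.70, 1.70 and 1.93, or 1.55-fold (0.63 ± 0.08, adjusted p = 0.00108). The groups did not overlap for any of the 4 genes. MUC4 passed the fold threshold on 2 of its 3 tested probes and its call was lost without control replicate 3 at 72 h (0.56). The MUC13 call was lost with normexp (0.53) and with the series matrix values (0.52).

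**Figure D3:**
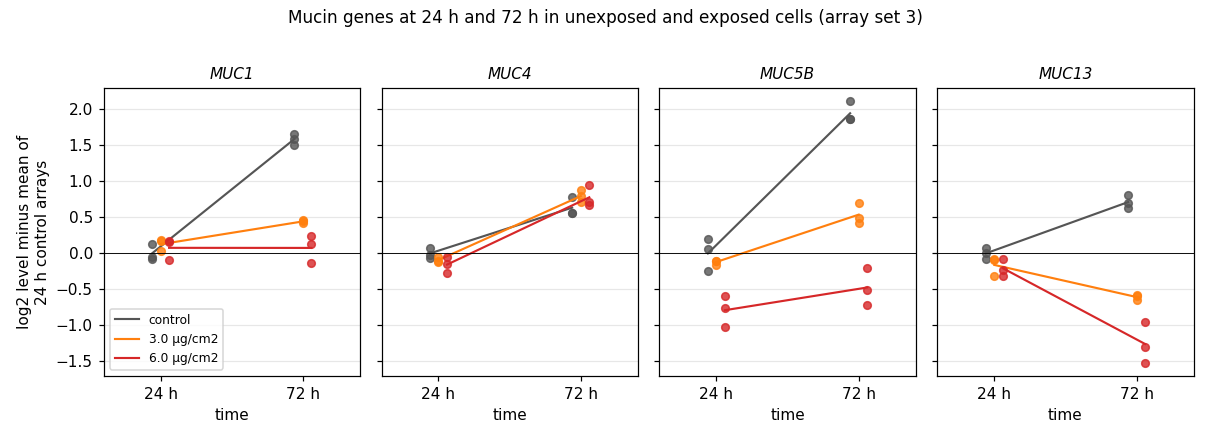
Levels of MUC1, MUC4, MUC5B and MUC13 at 24 h and 72 h in unexposed cells (grey) and at 3.0 (orange) and 6.0 μg/cm2 (red), as the log2 level minus the mean of the 24 h control arrays of the same set. Points are arrays (n = 3) and lines join group means. In MUC1, MUC5B and MUC13 the 72 h control arrays lie above all exposed arrays, while in MUC4 exposed and control cells both lie higher at 72 h than at 24 h.

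The levels at 72 h can thus be read beside those of unexposed cells at 24 h. With 6.0 μg/cm2 for 72 h, MUC1 averaged −2.38 and the 24 h controls −2.46. MUC5B averaged −3.31 and the 24 h controls −2.83, and MUC13 averaged −4.87 and the 24 h controls −3.61. MUC4 averaged 1.92 and the 24 h controls 1.14. With 3.0 μg/cm2 for 72 h, MUC1 averaged −2.01, MUC5B −2.29 and MUC4 1.93. Every array there was higher in these genes than every 24 h control array of the third set. MUC13 averaged −4.21 at that dose and was lower on every array than in the 24 h controls. These pairs of groups were not tested against each other.

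The difference between the response at 72 h and that at 24 h was tested as an interaction. For 3.0 μg/cm2 it was −1.27 ± 0.10 in MUC1 (adjusted p = 0.000181), −1.29 ± 0.16 in MUC5B (adjusted p = 0.0016) and −1.16 ± 0.11 in MUC13 (adjusted p = 0.000376), where 3.21% of all probes were called downward and 2.12% upward. For 6.0 μg/cm2 it was −1.59 ± 0.15 (adjusted p = 4.93e-05), −1.63 ± 0.23 (adjusted p = 0.000401) and −1.76 ± 0.18 (adjusted p = 6.62e-05) in the same order, against 9.09% downward and 8.11% upward. For MUC4 it was 0.25 ± 0.10 and 0.30 ± 0.13, neither of which passed (adjusted p = 0.103 and 0.1). These tests use the same arrays as the comparisons above, scan days included.

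Markers of other cell types were read on the same arrays. The summed level of the 4 leukocyte markers, of which PTPRC, CD14 and CD68 were well above background on all 38 arrays and CD3E on 7, was −0.89 to −0.82 in 24 h controls and 1.53 to 1.61 in 72 h controls. It was at most 1.17 at 3.0 μg/cm2 and 0.64 to 0.78 at 6.0 μg/cm2 after 72 h. In unexposed cells it was thus higher at 72 h, and at 72 h it was lower with exposure, as were MUC1, MUC5B and MUC13. At 24 h the leukocyte sum was −0.20 to −0.14 at 3.0 μg/cm2 and 0.57 to 0.70 at 6.0 μg/cm2, above the controls. The summed level of the 4 fibroblast markers, of which COL1A1 was well above background on all arrays, COL3A1 on 2, DCN on 1 and PDGFRB on 0, was −2.36 to −1.88 in 24 h controls and −3.97 to −3.64 at 6.0 μg/cm2. At 72 h it was −2.61 to −2.49 in controls, −3.56 to −3.29 at 3.0 μg/cm2 and −4.18 to −3.86 at 6.0 μg/cm2. The summed level of 4 airway cell markers (SPDEF of goblet cells, SCGB1A1 and SCGB3A1 of secretory cells and FOXJ1 of ciliated cells), in which SCGB3A1 was the brightest, was 3.33 to 3.41 in 72 h controls, 3.36 to 3.90 at 3.0 μg/cm2 and 3.04 to 3.53 at 6.0 μg/cm2. SPDEF alone was 1.23 to 1.50, 0.27 to 0.43 and −0.70 to −0.52 in these groups. The sum of the 10 alveolar type II markers was 1.33 to 1.37 in 24 h controls, 1.78 to 1.89 in 72 h controls, 1.55 to 1.95 at 3.0 μg/cm2 and 72 h and 1.38 to 1.61 at 6.0 μg/cm2 and 72 h. That of the 3 endothelial markers, of which CDH5 was well above background on 37 arrays, VWF on 27 and PECAM1 on 3, was −4.29 to −4.23, −3.96 to −3.18, −4.20 to −3.21 and −4.11 to −3.55 in the same order. That of the epithelial markers was 9.24 to 9.42 in 72 h controls, 9.23 to 9.39 at 3.0 μg/cm2 and 9.13 to 9.29 at 6.0 μg/cm2. The part of all these markers in the mucin results was not tested. In cultures of this kind, fewer cells that express a mucin and less of its RNA in each cell cannot be told apart.

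Of 16 other mucin or mucin-like genes, 12 had a probe, and 4 of them (MUC2, MUC6, CD164 and OVGP1) were bright enough to be tested at 72 h. OVGP1, the oviductal mucin-like glycoprotein, fell 1.94-fold at 3.0 μg/cm2 after 72 h (−0.95 ± 0.06, adjusted p = 0.000743). At 6.0 μg/cm2 it fell 2.65-fold (−1.41 ± 0.12, adjusted p = 0.00023). It was the 1 of the 4 modulated at either dose, where 3.8% and 10.5% of all probes were modulated downward. MUC2 and MUC6, the gel-forming mucins of gut and stomach, differed from the control by 0.05 ± 0.13 and 0.41 ± 0.19 at 6.0 μg/cm2 and 72 h, which did not pass. Both rose between 24 h and 72 h in unexposed cells, 1.58-fold (0.66 ± 0.08, adjusted p = 0.000899) and 1.59-fold (0.67 ± 0.09, adjusted p = 0.00133). They were 2 of the 4 tested between these times, where 13.4% of all probes were modulated upward. A second MUC2 probe, also above background on all 38 arrays, was not called there (0.41 ± 0.18, adjusted p = 0.0861). MUC7, MUC12, MUC15, MUC17, MUC21, MUC22, MUCL1 and EMCN were well above background on at most 2 arrays.

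The goblet and secretory cell list holds 23 genes that accompany mucins in such cells. At 6.0 μg/cm2 and 72 h, 10 of the 18 tested fell and 1 rose, where 10.5% of all probes fell and 6.63% rose, with a list median of −1.17 beside 0.04 over all probes. At 3.0 μg/cm2 and 72 h, 9 of 17 fell, beside 3.8% of all probes (median −0.66, beside 0.03 over all probes). At 24 h and 6.0 μg/cm2, 9 of 17 fell and 1 rose, beside 5.37% and 3.95% of all probes (median −0.64, beside −0.03). In unexposed cells 13 of 19 were higher at 72 h than at 24 h and 1 was lower, beside 13.4% and 6.72% of all probes (median 0.90, beside 0.06). These counts include genes that passed the filter only through the group in which they were brighter. They were CFTR, BPIFB1 and ANO1 at 6.0 μg/cm2 and 72 h, and BPIFB1 at 3.0 μg/cm2 and 72 h. At 24 h and 6.0 μg/cm2 it was CFTR, and in unexposed cells BPIFA1, BPIFB1 and ANO1. TFF3, a trefoil peptide secreted together with mucins, fell 3.92-fold at 24 h (−1.97 ± 0.10, adjusted p = 6.35e-05) and 7.27-fold at 72 h (−2.86 ± 0.19, adjusted p = 0.00011) at 6.0 μg/cm2. CFTR, the chloride and bicarbonate channel that hydrates mucus, was at least 3.91-fold lower at 72 h. This is a bound because none of the 3 exposed arrays measured it well above background. No p-value is given beside a bound, since the test used values at the background. The bound sets the control mean against the lowest signal well above background on the exposed arrays. SLPI, a secreted protease inhibitor, fell 2.68-fold at 24 h (−1.42 ± 0.27, adjusted p = 0.00844). The genes that went the other way were TFF2 and ANO1. TFF2, the trefoil peptide of the stomach, was higher at 24 h (1.22 ± 0.14, adjusted p = 0.00128). ANO1, a calcium-activated chloride channel, was at least 1.59-fold higher at 72 h. For ANO1 the control arrays were the ones not well above background. SPDEF, a transcription factor of goblet cells named here after its values were seen, fell 3.84-fold at 6.0 μg/cm2 and 72 h (−1.94 ± 0.09, adjusted p = 4.22e-05).

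Of the 28 listed enzymes that build mucin O-glycans, 27 had a probe and 22 were tested. At 6.0 μg/cm2 and 72 h, 7 of these fell, where 10.5% of all probes did (median −0.42, beside 0.04 over all probes). At 3.0 μg/cm2 and 72 h, 3 of 22 fell, namely ST6GALNAC1, ST6GALNAC2 and GALNT4, where 3.8% of all probes did (median −0.22, beside 0.03). ST6GALNAC1, which caps the first sugar with sialic acid, fell 9.57-fold at 6.0 μg/cm2 and 72 h (−3.26 ± 0.19, adjusted p = 7.7e-05) and 5.43-fold at 24 h (−2.44 ± 0.17, adjusted p = 0.000208). ST6GALNAC2, of the same enzyme family, fell 4.57-fold at 72 h (−2.19 ± 0.37, adjusted p = 0.00393). Of the GALNT enzymes that attach the first sugar, GALNT4 fell 2.04-fold at 24 h (−1.03 ± 0.08, adjusted p = 0.000261), and GALNT9 rose 4.01-fold at 24 h (2.01 ± 0.12, adjusted p = 0.000117). With ST6GALNAC2 (−0.77 ± 0.12, adjusted p = 0.00366), 3 of the 22 fell and 1 rose at 24 h and 6.0 μg/cm2, beside 5.37% and 3.95% of all probes. At 6.0 μg/cm2 ST6GALNAC1 was well above background on 2 of 3 arrays at each time and ST6GALNAC2 on 2 of 3 at 72 h, as was GALNT9 on 2 of the 3 control arrays at 24 h, so that these folds rest partly on an array at the background. In unexposed cells 5 of 22 were higher at 72 h than at 24 h, beside 13.4% of all probes, namely ST6GALNAC1, GALNT9, ST6GALNAC4, B3GNT3 and GALNT12.

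**Figure D4:**
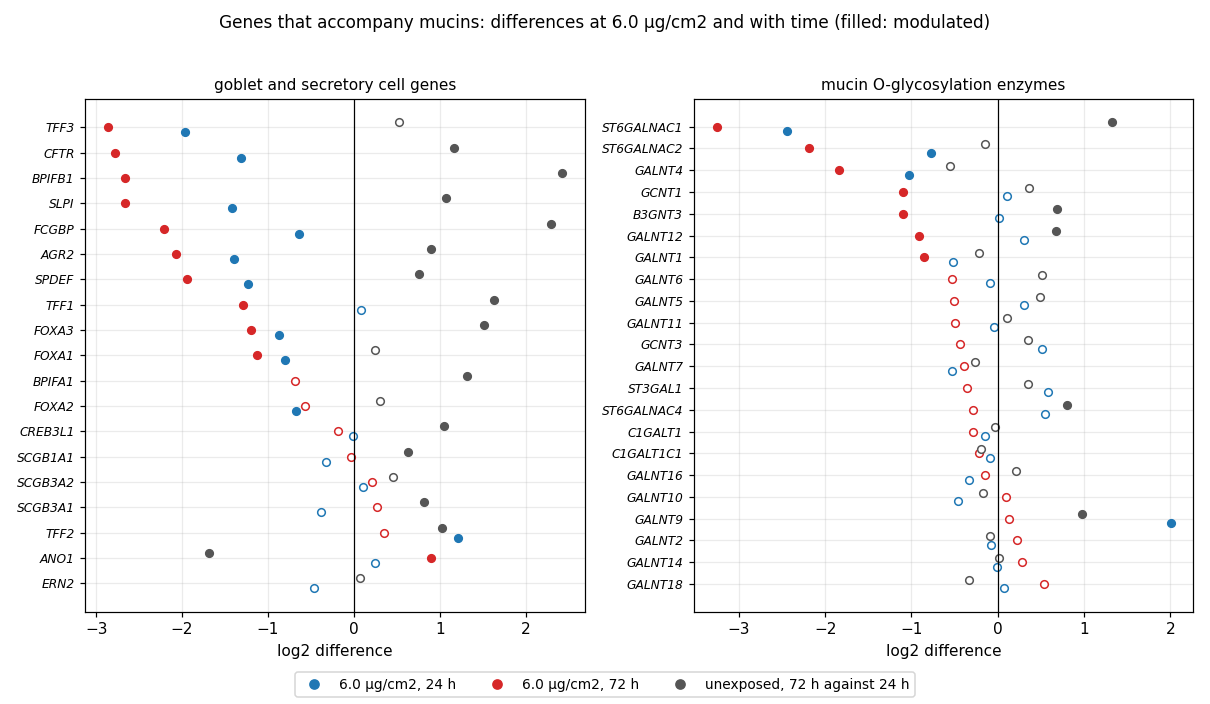
Log2 differences of the goblet and secretory cell genes (left) and of the mucin O-glycosylation enzymes (right) at 6.0 μg/cm2 after 24 h (blue) and 72 h (red), each against its own controls, and in unexposed cells at 72 h against 24 h (grey). Points are limma estimates, filled where the gene was modulated, and genes are ordered by the 72 h difference. The red and the grey points share the 72 h control arrays, and measured differences are drawn also for genes such as CFTR and ANO1 that were not well above background in a group. TFF3 (−2.86) and ST6GALNAC1 (−3.26) are lowest at 72 h.

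Of 14 genes for the release of mucin granules, all tested, 5 fell at 6.0 μg/cm2 and 72 h, where 10.5% of all probes did (median −0.20, beside 0.04 over all probes), and 1 fell at 24 h, a share near the 5.37% of all probes. These included VAMP8, a granule fusion protein (−1.06 ± 0.10, adjusted p = 0.000354), and SYTL4, a tether of secretory granules (−0.92 ± 0.07, adjusted p = 0.000132), with RAB27A, STXBP2 and UNC13B as the others. The gene at 24 h was MARCKS, an actin-binding protein of granule transport (−0.81 ± 0.07, adjusted p = 0.000447). Of 16 partners and sheddases of membrane mucins, 3 fell and 1 rose at 6.0 μg/cm2 and 72 h, beside 10.5% and 6.63% of all probes (median −0.08), and 1 fell and 2 rose at 24 h, beside 5.37% and 3.95% (median 0.03). ERBB3, a receptor kinase of the EGF receptor family, fell 2.30-fold at 24 h (−1.20 ± 0.14, adjusted p = 0.00143) and 6.33-fold at 72 h (−2.66 ± 0.09, adjusted p = 2.16e-05). MMP7, a matrix metalloprotease, fell 2.21-fold at 72 h (−1.14 ± 0.07, adjusted p = 7.21e-05), and ERBB2, the receptor that MUC4 can bind, fell 1.73-fold (−0.79 ± 0.07, adjusted p = 0.000296). ICAM1, an adhesion molecule that binds MUC1, rose at 24 h (1.66 ± 0.10, adjusted p = 0.000117) and at 72 h (0.79 ± 0.12, adjusted p = 0.00228), and EGFR rose at 24 h (0.69 ± 0.08, adjusted p = 0.00156). At 1.0 μg/cm2 ICAM1 was the 1 gene of these lists that was modulated (0.84 ± 0.06, adjusted p = 0.00468). The genes named here beyond the largest changes of each list were chosen after their values were seen. The members of all 5 lists were chosen with earlier results of these data known, and nothing is read from their shares about other genes.

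After subtraction of the mean of each array's own controls, MUC1 and MUC5B had a Pearson r of 0.91 over the 38 arrays. It was 0.80 for MUC1 and MUC13, and 0.81 for MUC5B and MUC13. The exposed 72 h arrays held the lowest values of all these genes, and no r was computed without them. At 6.0 μg/cm2 and 24 h the mean difference was 0.08 in MUC1 and −0.79 in MUC5B. At 1.5 μg/cm2 it was 0.47 in MUC1 and −0.50 in MUC13. MUC4 had an r of −0.49 with MUC1, −0.33 with MUC5B and −0.13 with MUC13, and its 3 probes above background on every array gave 0.90, 0.60 and 0.58 with one another. Among 12160 genes measured above background on every array, the pattern of MUC1 was most like those of PNPLA7 (r = 0.96), SPAG4 (0.96) and CFB (0.95), that of MUC5B like MAST4 (0.95), CFD (0.95) and ARSL (0.94), and that of MUC13 like CYB5D2 (0.97), MANSC1 (0.96) and RAB40B (0.95). These values describe the arrays, which share controls, doses and scan days.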

How the data were processed

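Total RNA of A549 cells was labelled with Cy3 and hybridised to Agilent 4x44K V2 arrays by the authors, who extracted the scans with Agilent Feature Extraction (versions 10.10.1.1 and 11.0.1.1). The deposited processed intensity is already background-corrected, and the deposited series matrix holds median intensity values (1690810 of 1690810 lay within 0.01 of the scanner files). The methods describe a t-test with Benjamini-Hochberg adjustment at a fold change of 1.5, on 3 cultures per group.

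Control spots and outlier-flagged spots (0.612% of 43118) were dropped, and replicate spots were averaged. No spot was saturated. log2 intensity minus the 75th percentile of each array was tested with limma 3.58.1 (R 4.3.3), each exposure against the controls of its set, over the probes that passed the scanner's above-background call throughout 1 or more of the compared groups. Benjamini-Hochberg adjustment ran over all these probes, and modulated means a change of 1.5-fold or more whose adjusted p is below 0.05. Precision is limited by the 3 or 4 arrays per group. Because cultures and arrays may not be independent, p-values measure the spread between arrays, which may be technical. A gene is described by its probe with the highest mean over all arrays. Tests were checked on simulated data.

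The members, lists and motifs were chosen with earlier results of these data known. Named genes are the members, the 3 genes with the most similar pattern to each (not reported here for MUC4), and up to 2 called genes of each list per direction at 6.0 μg/cm2 and each time; others are said to be chosen afterwards or are named where a count was small. The comparison of both doses at 72 h was added after the data were seen. In it the deviations of same-numbered arrays correlated (0.602, 0.152 and 0.308). These correlations were also all positive at 1.5 μg/cm2 (0.0733 to 0.47) and at 3.0 μg/cm2 and 24 h (0.00656 to 0.161). Between the times in unexposed cells they were positive but small (0.0217 to 0.0751), and in the other comparisons they were not positive in every pair. Alternatives covered background correction, normalization, probe filter, fold threshold, series matrix, the methods' t-test, blocks for replicate number, slide and scan day, array pairs and left-out arrays. Figures were drawn with matplotlib 3.10.9.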

Additional observations from a re-analysis of the deposited data

Results flagged for a closer look

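The responses of MUC1, MUC5B and MUC13 differed between the exposure times by the interaction test. The difference between the log2 changes at 72 h and 24 h was −1.27 (3.0 μg/cm2) and −1.59 (6.0 μg/cm2) for MUC1, −1.29 and −1.63 for MUC5B, and −1.16 and −1.76 for MUC13. Exposure and scan day cannot be told apart at 72 h in these values.

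A single array stood far from the others of its group in 2 of 25 checks, where chance flags about 1 in 20. MUC4 was 1.62 on replicate 4 of the first set's controls against 1.75 to 1.76 on the other arrays, a gap of 0.907 of the group's range. MUC5B was −1.59 on replicate 1 of the second set's controls against −1.98 to −1.93 on the others, a gap of 0.872 of the range. Without that array the MUC5B difference at 1.5 μg/cm2 was 0.78 (adjusted p = 0.00734).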

How the results depend on the processing

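The falls of MUC1, MUC5B and MUC13 at 72 h kept their direction and side of the threshold in every alternative run. So did their differences between 72 h and 24 h. None of these alternatives held a block for slide or scan day, which cannot be told apart from exposure at 72 h. At 6.0 μg/cm2 and 72 h the log2 difference lay between −1.59 and −1.25 for MUC1, −2.55 and −1.82 for MUC5B, and −2.12 and −1.05 for MUC13. Over all mucin genes, comparisons and alternatives, 304 values of called genes stayed called and 22 did not, and 3 values of genes not called became called. At 1.5 μg/cm2 the count of 1 modulated mucin gene became 0 with normexp, without the probe filter (adjusted p = 0.0631), with the series matrix values and within the first scan day. It became 2 without the fold threshold and 3 within the second scan day, which held only arrays 3 and 4 of each group. With alternatives chosen after seeing the data it became 0 with replicates 1, 3 and 4 alone (adjusted p = 0.105), with the array pairs as a random block, and with the pairs averaged (adjusted p = 0.358). Over all its alternatives the adjusted p of MUC5B at that dose ran from 0.00563 to 0.358. At 6.0 μg/cm2 and 24 h the count of 1 became 0 with normexp and with the series matrix values. Between the doses at 72 h the count of 2 became 1 with normexp, quantile normalization, no probe filter or the series matrix values, and MUC5B remained. Leaving out 1 array at a time gave 0 to 1 gene at 1.5 μg/cm2, 1 to 2 between the doses at 72 h and 3 to 4 in unexposed cells. The causes of these changes were not tested. The slide as a random block was not run at 3.0 μg/cm2 and 72 h, because its correlation could not be estimated.

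With the replicate number as a block the counts were 0, 0 and 1 at 0.1, 1.0 and 1.5 μg/cm2, 0 and 1 at 3.0 and 6.0 μg/cm2 after 24 h, 3 and 3 after 72 h, 2 between these doses and 4 in unexposed cells, so the block changed no count. In the comparisons with controls, correlations of same-numbered deviations ran from −0.34 to 0.47. They were all positive at 1.5 μg/cm2 (0.0733 to 0.47) and at 3.0 μg/cm2 after 24 h (0.00656 to 0.161), but not in the others. Same-numbered exposed and control arrays shared a slide at 1.5 μg/cm2 and at 3.0 and 6.0 μg/cm2 after 24 h. At 0.1 and 1.0 μg/cm2 arrays 1 to 3 did so. The depth of these arrays is their signal over background, which left MUC16 untested.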
